A study of Mus musculus with 9 samples.

Results

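The comparison described here set bone-marrow-derived macrophages given lipopolysaccharide (LPS) together with NCT503 against macrophages given LPS alone. LPS is a bacterial cell wall component that macrophages sense through Toll-like receptor 4, and NCT503 is a small-molecule inhibitor of phosphoglycerate dehydrogenase (PHGDH), the enzyme that draws glycolytic carbon into serine synthesis. Its members are the 6 RNA-seq libraries of these 2 states, 3 of each, of 9 libraries in the series, and the 22620 genes listed for them, of 24187 in the series. Marrow cells of C57BL/6 mice aged 8 weeks were grown for 6 days in medium that held the macrophage growth factor M-CSF (10 ng/ml) and 10% fetal bovine serum, and the macrophages were then cultured for 6 h with 500 ng/ml LPS (libraries LPS 1 to 3) or with 500 ng/ml LPS and 50 µM NCT503 (libraries NCT503 1 to 3). The other 3 libraries, untreated macrophages cultured for 6 h (control), were in no test and are given only to show where unstimulated cells lay. Both groups compared carry LPS, there was no library of NCT503 without LPS and no second PHGDH inhibitor, and no vehicle is named for the LPS group. Inhibition of PHGDH and other actions of the compound at 50 µM can therefore not be told apart. The labels do not say that the replicates are separate animals or cultures, so the p-values measure only the spread between these libraries.

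Serine supplies one-carbon units to the folate cycle, and through it purines, thymidylate and methyl groups, and it is a precursor of glycine and glutathione. Cells short of amino acids hold uncharged tRNA, which activates the kinase GCN2; phosphorylation of the initiation factor eIF2 then favours translation of the transcription factor ATF4, which raises genes of amino acid synthesis, uptake and tRNA charging (the integrated stress response). Amino acids also reach the growth kinase mTORC1 through the Rag GTPases on the lysosome, and TFEB family factors raise lysosomal genes when that signal is low. In macrophages, LPS starts NF-κB and interferon programs of cytokines, chemokines and antiviral genes.

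Values are read numbers of each gene scaled by the size factor of the library (normalized reads), given in the order of libraries 1, 2 and 3. Genes whose mean reached 1 normalized read in one group or the other were tested with limma on log2(normalized reads + 1), and a gene is said to rise or fall where its Benjamini-Hochberg adjusted p over all genes tested is under 0.05. Log2 fold changes are of LPS with NCT503 minus LPS, ± SE, with 3 libraries in each group. Library totals were 20297324 to 22596092 reads.

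The inhibitor went with a difference in about as many genes upward as downward. Of 19795 genes tested 6449 were called (32.6%), 3351 higher (16.9%) and 3098 lower (15.7%), and the median log2 fold change over all genes tested was 0.08. At least 2-fold changes were seen in 2490 genes that rose and 1883 that fell, and 8-fold changes or more (log2 3) in 230 and 130. In 3201 of the genes that rose and 3043 of those that fell the 3 libraries of one group all lay above the 3 of the other, an arrangement found upward in 22.9% and downward in 22% of all genes tested (44.9% in all). The even split between directions rests on the scaling. Among calls of the main analysis 52.0% were higher, against 67.3% under scaling by library totals alone (4408 higher and 2144 lower), which shifts the median gene by 0.24 on the log2 scale. Abundant genes fell more often than rare ones: of those averaging 1000 normalized reads or more 19.2% rose and 36.4% fell, whereas of those between 10 and 100 normalized reads 21.2% rose and 12.1% fell. The authors' deposited table gives 3134 genes higher and 3059 lower at the same adjusted p.

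**Figure D1:**
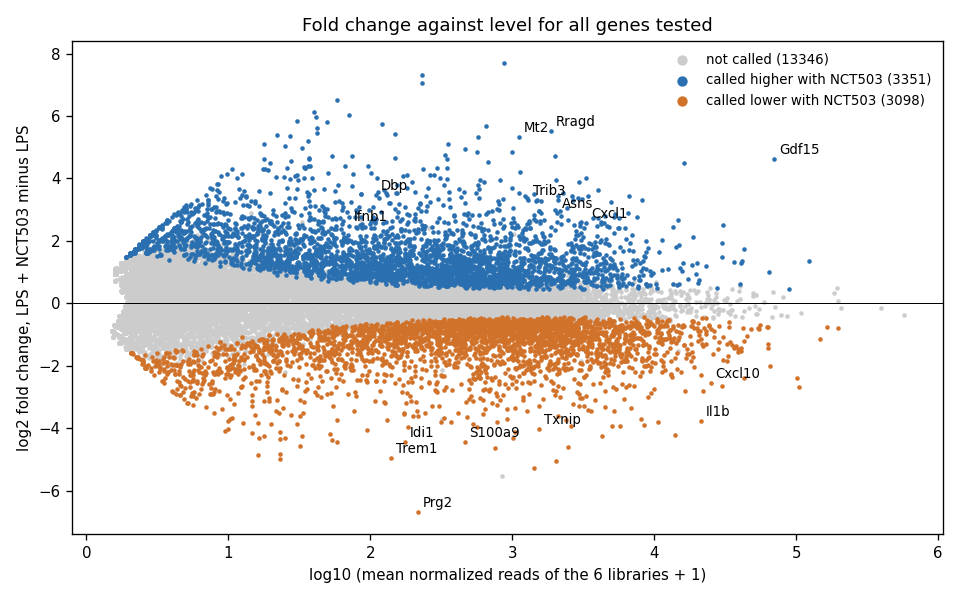
Log2 fold change of LPS with NCT503 minus LPS (vertical axis) against the log10 mean level of the 6 libraries (horizontal axis, normalized reads + 1), 1 point per gene tested. The 3351 genes called higher are blue, the 3098 called lower orange and the rest grey, and genes named in the text are marked; rises and falls are both seen across the range of levels.

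The second NCT503 library stood apart from the other two in part of the genes. Of 10249 genes averaging 50 normalized reads or more in the NCT503 group, NCT503 2 lay at least 2-fold from both others, which lay within 0.5 log2 units of each other, in 474 (4.62%), above them in 131 and below them in 343. The same count was 7 for NCT503 1, 3 for NCT503 3, and 16 to 64 for the LPS libraries. The first principal component separated the groups and held 81.0% of the variance, and the second (12.2%) placed NCT503 2 at 42.0 and the other NCT503 libraries at −21.8 and −14.9. Genes farthest apart included Rps2, a ribosomal protein, with 16630.4, 798 and 17279 normalized reads in the NCT503 libraries against 14124, 22538 and 17406 in the LPS libraries, and Itgax, the integrin CD11c, with 482, 8007 and 472 against 607, 583 and 562. In these genes the fitted difference was made by 1 library: Itgax stood at 1.06 with all 6 libraries and at −0.29 without NCT503 2, and neither value passed the test (adjusted p = 0.568 and 0.179 in limma).

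The genes in which NCT503 2 was low were poorer in G and C than others and those in which it was high were richer. Median GC content of the transcripts was 43.8% for the 343 genes below, 56.5% for the 131 above and 49.7% for all 10249, and the median transcript length was 4770, 3341 and 3386 bases. Over 4 equal bins of genes by rising GC content, the median of NCT503 2 minus the mean of the other NCT503 libraries was −0.40, −0.15, 0.15 and 0.38 log2 units. The treatment difference itself also ran with GC content, in the same order without NCT503 2: in the bin lowest in GC 32.3% of genes rose and 13.4% fell (42.4% and 13.7% without NCT503 2), and in the bin highest in GC 14.9% rose and 34.9% fell (13.3% and 44.4%). With GC content regressed out of each library, an alternative added after the data were seen, 346 of the 355 genes named by rule stayed on their side of the threshold, 5 lost a call (Irf1, Ccl5, Suclg2, Rpl22l1 and Llgl2), 4 gained one (Tnf, Il1rn, Acod1 and Csf1r) and none that was called turned direction. Most of the 355 were named for large changes or small p, so that count does not carry over to other genes. Over all genes the GC setting gave 7375 calls, 3884 higher and 3491 lower. Leaving out NCT503 2 gave 7304 calls (36.8%), 3748 higher (18.9%) and 3556 lower (17.9%). These held 3042 of the 3351 rises and 2950 of the 3098 falls. Of the 343 genes in which NCT503 2 was low, 122 rose with and without it and 89 rose only when it was left out. The 343 included 8 antiviral interferon-stimulated genes, 6 guanylate-binding protein genes and 6 CC chemokines. Counts and medians of those groups are given with and without NCT503 2.

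**Figure D2:**
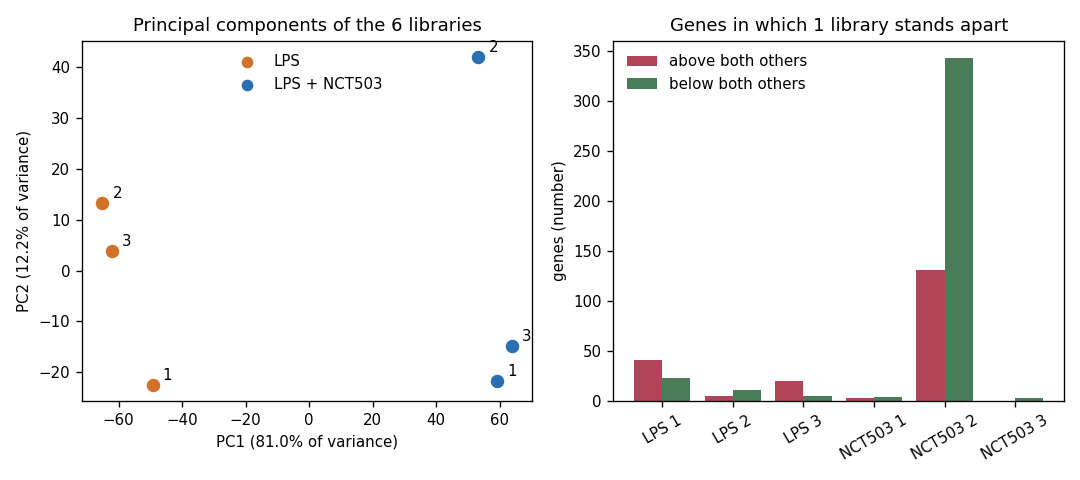
Left, the first and second principal components of the 6 libraries over 10639 genes, with the share of variance on each axis; the groups part on the first, and NCT503 2 parts from the other NCT503 libraries on the second. Right, for each library, the number of genes in which it lies at least 2-fold above (red) or below (green) both others of its group while those agree; NCT503 2 has 131 above and 343 below.

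The cells carried the defining macrophage markers in every library, and reads of markers of other cell types were found as well. Csf1r, the receptor of macrophage colony-stimulating factor, had 29502, 34074 and 29752 normalized reads with LPS and 30158, 38783 and 29958 with NCT503, and did not pass the test (0.08 ± 0.17, adjusted p = 0.76 in limma), though it was called higher with GC content regressed out. Of 18 macrophage identity genes 9 fell, with a median log2 fold change of −0.83. Without NCT503 2 the median was −0.47, with 9 lower and 1 higher. Neutrophil markers fell in 11 of 13 (median −2.98), and their summed level was 13028 to 18192 with LPS, 3744 to 4259 with NCT503 and 7178 to 10240.3 in control. With LPS and with NCT503 the sum is mostly Csf3r, a receptor that macrophages also express, whereas in control it is mostly other markers. Ly6g, a defining neutrophil marker, was not measured, and Retnlg and Cxcr2 had no read in the NCT503 libraries. Markers of mast cells, basophils and eosinophils fell in 11 of 12 (median −2.63), from a summed 2439.7 to 3727 to 297 to 319 normalized reads, with Epx and Ear1 at 0 in all 3 NCT503 libraries. T and natural killer cell markers fell in 9 of 14 (6 without NCT503 2) and rose in 1 (2 without LPS 1). Their summed level went the other way, 2296 to 3155 with LPS and 2770.3 to 4642 with NCT503, and is mostly Cd4, which rose (1.08 ± 0.21). B cell markers fell in 3 of 6 (1 without LPS 3), with summed levels of 527 to 1257 and 216 to 268. Fibroblast and endothelial markers were mixed, 4 higher (2 without LPS 1 or LPS 2) and 3 lower of 13, with a summed level of 16015 to 32716 and 17691 to 40895, highest in NCT503 2. In bulk RNA, fewer cells of a type and less RNA per cell cannot be told apart, and the part of these cell types in the differences below was not tested.

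The serine pathway itself changed mainly at its uptake, its mitochondrial carrier and its folate branch. Phgdh, the target of the inhibitor, had 265, 361 and 510.1 normalized reads with LPS and 523, 723 and 605 with NCT503, and the groups do not overlap. Its rise of 0.74 ± 0.24 (adjusted p = 0.0368 in limma) lost its call without LPS 1, LPS 2, NCT503 2 or NCT503 3, and the RNA level does not check whether the enzyme was inhibited. Of 12 genes of serine synthesis and uptake 5 rose (3 without LPS 2) and 1 fell, with a median of 0.24. Among those that rose were Sfxn1, the mitochondrial serine carrier (2.35 ± 0.23), Slc6a9, a glycine transporter (2.04 ± 0.23), and Slc1a4, a neutral amino acid transporter (1.32 ± 0.28). Psat1 and Psph, the following enzymes of the pathway, stood at 0.24 ± 0.19 and 0.24 ± 0.32 and did not pass the test.

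Folate enzymes moved in both directions. Of 21 genes 9 rose and 3 fell (median 0.53), whereas 16.9% of all genes tested rose and 15.7% fell. The count of falls is thus near the share of all genes. Mthfd2, a mitochondrial methylenetetrahydrofolate dehydrogenase, had 1057, 947 and 1164 normalized reads with LPS, 4119, 3711 and 3889 with NCT503 and 565, 672 and 609.9 in control. All NCT503 libraries lay above all LPS libraries, at 1.89 ± 0.16 (adjusted p = 8.89e-06 in limma). Aldh1l2, which oxidizes formyl-tetrahydrofolate in mitochondria, rose by 2.77 ± 0.36, while Aldh1l1, its cytosolic counterpart, fell (−2.33 ± 0.24). The serine hydroxymethyltransferases Shmt1 (1.77 ± 0.26) and Shmt2 (1.70 ± 0.22) rose. In the methionine cycle and transsulfuration 8 of 16 genes rose, among them Mtr, methionine synthase (1.80 ± 0.25), and Cth, which makes cysteine from cystathionine (2.44 ± 0.41), and 3 fell. Of 18 genes of purine and pyrimidine synthesis 7 rose, led by the ribose phosphate kinase Prps1 (1.93 ± 0.23).

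Targets of ATF4 rose together. Of 29 listed targets of the amino acid response 26 rose, against 16.9% of all genes, with a median of 1.88 against 0.08; the other 3, Nupr1 (−0.12), Pycr1 (0.92) and Fgf21 (0.95), did not pass. Without NCT503 2 the count was 26. Gdf15 (chromosome 8, 70629393 to 70632456), a secreted stress cytokine, had 4314, 8614 and 4292 normalized reads with LPS and 145521, 118880.1 and 138589.7 with NCT503, a difference of 4.62 ± 0.25 (adjusted p = 4.22e-07 in limma). It stood at 1299, 1839 and 2145 in control, so all NCT503 libraries lay above both other states. Trib3, a pseudokinase that restrains ATF4, had 169, 257 and 281 and 2032, 2724 and 2230.1 (3.32 ± 0.22). Asns, the asparagine synthetase, had 431, 492 and 546 and 3656, 3379 and 3828 (2.89 ± 0.17), and Chac1, which breaks down glutathione, had 67.7, 113 and 92.1 and 871, 727 and 920.4 (3.22 ± 0.22). In each of these genes the groups do not overlap.

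The factors of the response changed less evenly. Of 17 transcription factors, kinases and phosphatase subunits 8 rose and 1 fell. Atf4 itself rose by 1.37 ± 0.17, and its partners Cebpg (1.53 ± 0.18) and Ddit3, the factor CHOP (1.75 ± 0.17), rose too. Impact, an inhibitor of GCN2, rose the most of the list, from 350.3, 194 and 200.01 to 4289, 2727 and 4362 normalized reads (3.95 ± 0.26). Atf3, a stress factor that LPS also induces, had 9236, 11556 and 12825 and 13113, 11055 and 12445 and did not pass (0.13 ± 0.18, adjusted p = 0.594 in limma). Ppp1r15b, a constitutive subunit of the eIF2 phosphatase, fell (−1.5 ± 0.17).

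Most cytosolic aminoacyl-tRNA synthetases rose, and amino acid transporters did so in part. Of 25 amino acid transporters 12 rose and 4 fell (1 or 2 without LPS 2, LPS 3, NCT503 1 or NCT503 3). Those that rose included Slc43a2, a transporter of large neutral amino acids (2.77 ± 0.24), the arginine transporter Slc7a1 (2.68 ± 0.17) and Slc7a11, the cystine transporter (2.46 ± 0.27). Slc3a2, the heavy chain that several of these share, had 15793, 23070.4 and 19911 normalized reads with LPS and 60760.3, 74301 and 61638 with NCT503 (1.75 ± 0.19). Of 20 cytosolic aminoacyl-tRNA synthetases 14 rose and 2 fell (median 1.28), with Eprs, the glutamyl-prolyl synthetase, at 2.96 ± 0.28. Of 17 mitochondrial synthetases 4 rose (2 without NCT503 3), Nars2 the most (2.58 ± 0.34). Among enzymes of other nonessential amino acids 2 of 18 fell (1 without LPS 2, LPS 3, NCT503 1 or NCT503 3) and 8 rose, including Got1, the cytosolic aspartate transaminase (2.41 ± 0.18), and Pck2, the mitochondrial phosphoenolpyruvate carboxykinase (2.20 ± 0.22).

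Some promoters of these genes hold the letters of the amino acid response element to which ATF4 and C/EBP factors bind. Sequences are RefSeq windows of the GRCm38.p6 assembly, from 250 bases before to 50 bases after a gene's start, and were matched to 12350 of 19783 tested symbols (15678 windows, since a gene can have several starts). This was 1 of 9 motifs searched in these windows, TGATGNAA on both strands. It was in 8 of 33 windows (24.2%) of genes that rose in the lists of stress factors and ATF4 targets and in 5 of 10 (50.0%) of aminoacyl-tRNA synthetases that rose, against 2.46% of all windows. The antioxidant motif TGACNNNGC was in 10 of the 33 windows and 3 of the 10 against 14.3% of all windows, and the E-box CACGTG in 3 of the 33 and 3 of the 10 against 9.30%. A match is a description of the letters and not a measured binding site. List members that did not rise were not counted apart, so these shares do not tie the motif to the rise. The windows of the 4 matched genes of smallest p, Asns (chr6:7693160-7693459, - strand), Trib3 (chr2:152344011-152344310, - strand), Chac1 (chr2:119350992-119351291, + strand) and Pck2 (chr14:55540016-55540315, + strand), are shown 5′ to 3′ along the gene's strand, with the match in capitals.
Asns: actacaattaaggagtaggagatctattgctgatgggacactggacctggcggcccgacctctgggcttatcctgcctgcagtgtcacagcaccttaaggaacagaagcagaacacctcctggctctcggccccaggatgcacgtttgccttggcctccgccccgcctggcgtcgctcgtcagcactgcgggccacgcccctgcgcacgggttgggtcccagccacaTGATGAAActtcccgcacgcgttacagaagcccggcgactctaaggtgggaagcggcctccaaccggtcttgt
Trib3: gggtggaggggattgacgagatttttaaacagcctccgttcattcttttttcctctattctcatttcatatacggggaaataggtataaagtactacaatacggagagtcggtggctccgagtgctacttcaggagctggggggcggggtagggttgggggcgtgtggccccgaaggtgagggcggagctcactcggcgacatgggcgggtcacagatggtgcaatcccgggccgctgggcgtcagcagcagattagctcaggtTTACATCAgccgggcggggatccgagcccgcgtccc
Chac1: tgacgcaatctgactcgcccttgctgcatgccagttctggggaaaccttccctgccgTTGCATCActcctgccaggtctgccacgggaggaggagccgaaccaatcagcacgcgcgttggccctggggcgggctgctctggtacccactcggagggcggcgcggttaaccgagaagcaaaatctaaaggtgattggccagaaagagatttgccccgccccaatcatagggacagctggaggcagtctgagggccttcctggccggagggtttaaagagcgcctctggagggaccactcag
Pck2: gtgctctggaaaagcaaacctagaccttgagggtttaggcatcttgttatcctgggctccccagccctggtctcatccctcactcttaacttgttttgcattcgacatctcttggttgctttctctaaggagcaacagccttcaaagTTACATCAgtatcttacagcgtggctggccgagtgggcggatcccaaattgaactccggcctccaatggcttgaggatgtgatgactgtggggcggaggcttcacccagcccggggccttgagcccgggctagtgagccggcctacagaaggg

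**Figure D3:**
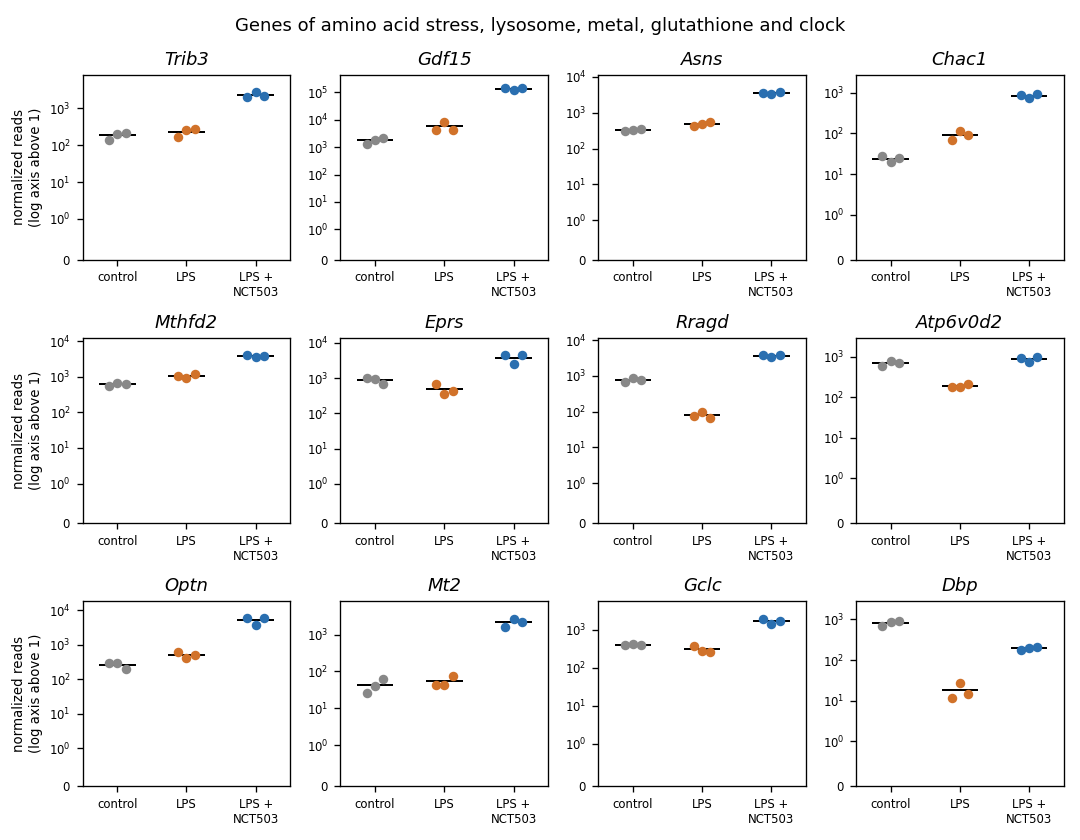
Normalized reads (vertical axis, logarithmic above 1) of 12 genes in each library of control (grey), LPS (orange) and LPS with NCT503 (blue); points are libraries and bars are group means, n = 3. In all 12 the 3 libraries with NCT503 lie above the 3 with LPS alone.

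Rragd led a group of genes that act between amino acids, the lysosome and mTORC1. Rragd (chromosome 4, 32983037 to 33022180), a Rag GTPase, had 75.6, 96.7 and 67.4 normalized reads with LPS, 3803, 3459 and 3709.6 with NCT503 and 687, 869.8 and 772 in control, a rise of 5.51 ± 0.19 with the smallest p of all genes tested (adjusted p = 1.06e-07 in limma). Of the 16 genes of the Rag, folliculin and TFEB list 6 rose. They included Flcn, the GTPase-activating protein of Rag C and D (1.84 ± 0.18), its partners Fnip1 (2.43 ± 0.31) and Fnip2 (1.30 ± 0.21), and Tfeb (1.12 ± 0.20), while Tfe3, a relative of Tfeb, fell (−1.37 ± 0.18). Of 16 subunits and brakes of mTORC1 2 fell (0 without LPS 2, LPS 3, NCT503 1 or NCT503 3) and 6 rose, all of the latter inhibitors or upstream brakes: among them Ddit4l (3.36 ± 0.47), Deptor (2.49 ± 0.53), Sesn2, a leucine-binding brake (2.19 ± 0.18), Ddit4 (1.70 ± 0.26) and Tsc1 (1.69 ± 0.21).

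Lysosomal genes rose in part, and of the proton pump subunits that rose all but Atp6v0d2 belong to its cytosolic V1 part. Of 38 genes of the pump and the hydrolases 12 rose, 2 fell (5 without LPS 1, 1 without NCT503 3) and the median was 0.11. Atp6v1a, the catalytic subunit of the pump, had 5431, 3738 and 4255 normalized reads with LPS and 20239, 14737 and 19749.6 with NCT503 (2.03 ± 0.20), and Atp6v0d2, a membrane subunit found in macrophages and osteoclasts, had 182, 184 and 216 and 928, 772 and 982 (2.20 ± 0.18). The NCT503 libraries lay above the LPS libraries in both. Lipa, the lysosomal acid lipase, rose by 1.88 ± 0.16. In autophagy 10 of 28 genes rose and 3 fell. The cargo receptors Optn (3.38 ± 0.23) and Sqstm1 (1.36 ± 0.18) rose, and Atg9a, a membrane protein of the forming autophagosome, fell (−1.78 ± 0.18).

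TFEB family factors bind the CLEAR element, an extended E-box. The E-box CACGTG was in 7 of 23 windows (30.4%) of genes that rose in the Rag, lysosome and autophagy lists against 9.30% of all windows, and the CLEAR element TCACGTGA, which holds an E-box, in 3 of 23 (13.0%) against 1.65%; both were searched on both strands. Among all genes that rose 11.5% of windows held an E-box, and among all that fell 7.54%. Members of the 3 lists that did not rise were not counted apart. The windows of Atp6v1a (chr16:44139210-44139509, - strand, CLEAR in capitals) and Fnip1 (chr11:54437929-54438228, + strand, E-box in capitals) are those of smallest p with a match.
Atp6v1a: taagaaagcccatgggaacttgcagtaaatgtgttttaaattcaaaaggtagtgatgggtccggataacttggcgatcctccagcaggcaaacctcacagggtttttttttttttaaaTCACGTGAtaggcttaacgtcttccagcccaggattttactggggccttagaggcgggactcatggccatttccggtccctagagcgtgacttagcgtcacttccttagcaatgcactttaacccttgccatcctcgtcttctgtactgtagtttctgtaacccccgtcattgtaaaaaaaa
Fnip1: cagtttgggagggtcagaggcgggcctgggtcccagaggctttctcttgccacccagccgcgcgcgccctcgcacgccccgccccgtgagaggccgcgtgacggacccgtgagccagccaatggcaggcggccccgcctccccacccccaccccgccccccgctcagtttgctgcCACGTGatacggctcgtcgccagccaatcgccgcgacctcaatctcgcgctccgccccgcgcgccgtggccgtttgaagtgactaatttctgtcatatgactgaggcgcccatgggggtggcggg

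In the lists of metal handling, redox and heat shock genes some members rose, and fewer fell. The metallothioneins Mt1 and Mt2, which bind zinc and copper, had 1074, 1719 and 1438 and 43.2, 43.6 and 74.2 normalized reads with LPS against 27686, 33557 and 31850.3 and 1639, 2669.8 and 2172 with NCT503, rises of 4.48 ± 0.20 and 5.32 ± 0.26. Slc30a1, a zinc exporter (3.44 ± 0.21), and Slc40a1, the iron exporter (2.27 ± 0.19), rose beside them, and in the list of metal handling 7 of 18 rose and 3 fell. Of 27 NRF2 targets and genes of glutathione and the pentose phosphate pathway 13 rose and 5 fell (3 without LPS 3 or NCT503 3). Those that rose included Gclc, the rate-limiting enzyme of glutathione synthesis (2.45 ± 0.19), Gss, the next enzyme (2.0 ± 0.18), Srxn1 (2.12 ± 0.16) and Hmox1, heme oxygenase (1.35 ± 0.15). Of 18 cytosolic heat shock genes 9 rose and 0 fell, with Hsph1 at 2.45 ± 0.28; Hspa1a (2.85) and Hspa1b (2.72) are near-identical copies between which reads cannot be divided with certainty. Chaperones and sensors of the endoplasmic reticulum did not share this pattern, with 5 higher (2 or 3 without LPS 2, LPS 3, NCT503 1 or NCT503 3) and 8 lower of 23: Ern1, the sensor IRE1, rose (2.56 ± 0.16), and Xbp1, its target (−1.23 ± 0.17), fell.

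In the list of clock and KLF factors 14 of 24 rose and 3 fell (median 1.22), and Txnip, outside it, fell. Dbp, a factor driven directly by the clock, had 11.8, 27.1 and 14.6 normalized reads with LPS, 179, 200.04 and 216 with NCT503 and 691, 891 and 942 in control (3.48 ± 0.31); its exons overlap those of Sphk2, which had a mean of 5218 with LPS and 1458 with NCT503. Nr1d1 and Nr1d2, the REV-ERB repressors, rose by 2.26 ± 0.22 and 2.82 ± 0.25, and Bhlhe41, another repressor of the clock, by 2.80 ± 0.19. Txnip, an inhibitor of glucose uptake that responds to glucose, went the other way, from 3052, 2576 and 3053 to 160.2, 198 and 169.9 normalized reads (−4.03 ± 0.17) with 3763, 3655 and 3709 in control. All NCT503 libraries lay below all libraries of both other states. Its relatives Arrdc4 (1.08 ± 0.19) and Arrdc3 (1.29 ± 0.26) rose.

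Genes of cholesterol synthesis fell together. Of 28 synthesis genes and SREBP targets 21 fell (15.7% of all genes did) and the median was −1.60; without NCT503 2 the count was 21. Idi1, the isopentenyl diphosphate isomerase (chromosome 13, 8885501 to 8892451), had 416, 299 and 283 normalized reads with LPS and 16.6, 10.7 and 15.9 with NCT503 (−4.44 ± 0.27, adjusted p = 8.67e-07 in limma), against 117, 85.6 and 75.6 in control. Cyp51, lanosterol demethylase, had 1504, 1258 and 1601 and 105, 84.5 and 119 (−3.82 ± 0.20), against 617, 458 and 477 in control. Both genes lay below the control range with NCT503, and the groups do not overlap. Msmo1, a sterol oxidase (−3.10 ± 0.17), fell too. The 2 members that rose, Insig1 (1.26 ± 0.20) and Insig2 (1.5 ± 0.19), encode proteins that hold SREBP in the endoplasmic reticulum. The sterol element, searched as TCACNCCAC on both strands, was in 1 of 20 windows of the genes that fell against 1.17% of all windows.

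Other lipid genes split. Scd2, a stearoyl-CoA desaturase, fell by 3.87 on the log2 scale, Fasn, fatty acid synthase, by 1.68 and Lipg, the endothelial lipase, by 5.05. Of 13 genes of cholesterol efflux and LXR 7 fell (4 without LPS 2 or without NCT503 3), including the exporter Abcg1 (−2.49 ± 0.19) and Ch25h, which makes 25-hydroxycholesterol (−3.17 ± 0.28), while Mylip, an LXR target (1.93 ± 0.21), and Pparg (1.57 ± 0.21) rose. Hilpda (3.34 ± 0.21) and Plin2 (1.93 ± 0.18), proteins of the lipid droplet, rose. In the list of glycolysis and HIF1A targets 10 of 30 rose (6 without NCT503 3) and 3 fell (8 without NCT503 2 and 5 without LPS 1), with a median of −0.04. Those that rose included the hypoxia-responsive Vegfa (2.76 ± 0.20), Adm (2.68 ± 0.22) and the prolyl hydroxylase Egln3 (2.57 ± 0.24), and Hk2, a hexokinase (1.52 ± 0.17).

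Genes of the proteasome and the respiratory chain shifted slightly downward, in counts that depend on single libraries and on the scaling. Proteasome subunits fell in 14 of 31 (8 without LPS 3 or without NCT503 3), with Psma6 at −1.52 ± 0.16. Of all genes tested 15.7% fell, of those at 100 to 1000 normalized reads 20.7% and of those at 1000 or more 36.4%. Nuclear genes of the respiratory chain fell in 24 of 91, near the shares at these levels, with a median of −0.41. That count was 41 without LPS 1 or NCT503 2, 6 or 7 without LPS 2, LPS 3, NCT503 1 or NCT503 3, and 7 under scaling by library totals. Mitochondrially encoded genes fell in 10 of 13 (2 without LPS 2 or LPS 3, 4 without NCT503 3, and 3 under scaling by library totals). Cytosolic ribosomal proteins had a median of −0.13 over 82 genes, which turns to 0.12 under scaling by library totals and 0.21 under quantile normalization.

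**Figure D4:**
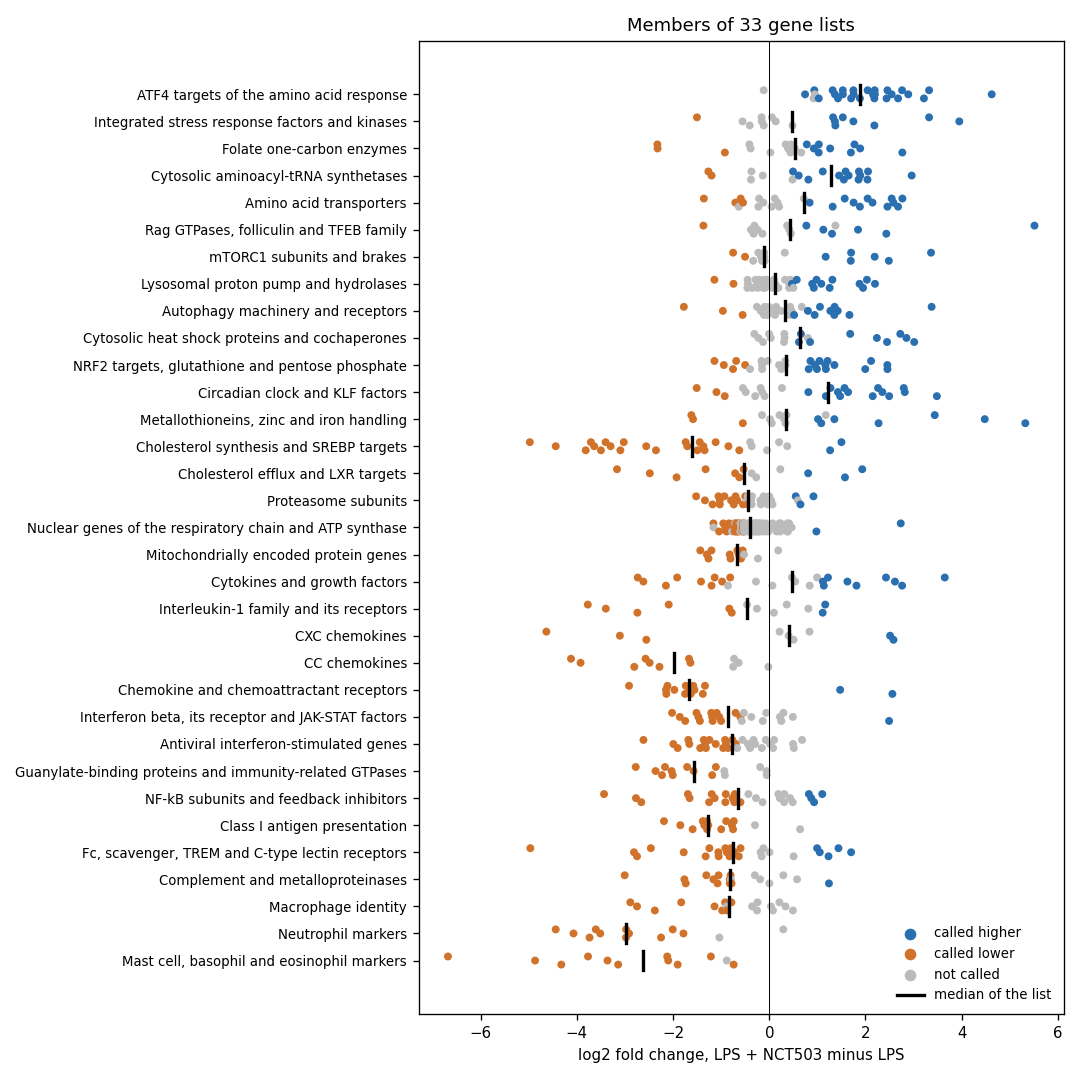
Log2 fold changes of LPS with NCT503 minus LPS (horizontal axis) for the tested members of 33 gene lists; each point is a gene, blue where called higher, orange where called lower and grey where not called, and the black bar is the median of the list. ATF4 targets lie nearly all to the right, sterol synthesis, CC chemokines, chemoattractant receptors, neutrophil and mast cell markers to the left.

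Within the inflammatory response some cytokines fell deeply, some rose and others did not pass the test. Il1b (chromosome 2, 129364570 to 129371139), the precursor of interleukin-1β, had 40041, 35687 and 42940.2 normalized reads with LPS, 2790.4, 2854 and 3007 with NCT503 and 18.4, 12.7 and 9.71 in control. The libraries with NCT503 lay far below those with LPS and far above control, and the difference was −3.77 ± 0.16 (adjusted p = 1.76e-07 in limma). In the interleukin-1 family 6 of 13 genes fell, among them Il1a (−2.09 ± 0.18) and Il18 (−2.74 ± 0.27), whereas Il1rn, the receptor antagonist, stood at −0.46 ± 0.25 and did not pass (adjusted p = 0.18), though it was called lower with GC content regressed out or with a replicate block. Of 25 other cytokines and growth factors 9 fell and 9 rose. Csf3 (−2.62 ± 0.21), Il27 (−2.15 ± 0.22) and its partner Ebi3 (−1.92 ± 0.16), Il10 (−1.42 ± 0.27) and Il6 (−0.98 ± 0.23) fell. Tnf had 25177, 35826 and 28228 and 48784, 33515 and 41480.0 normalized reads, overlapping groups, and did not pass (0.47 ± 0.20, adjusted p = 0.0905; 0.61, adjusted p = 0.0271 without NCT503 2); it was also called higher without LPS 2, under scaling by library totals or quantiles, and with GC content regressed out. Il12b, the shared p40 chain of interleukins 12 and 23, had 2266, 1327 and 1253 and 5091, 1893 and 4952 (1.22 ± 0.36), lowest of its group in NCT503 2 and there within the LPS range; the call held without that library (1.69) and was lost without LPS 2, LPS 3, NCT503 1 or NCT503 3.

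The inflammasome list parted likewise. Pycard, the adaptor ASC (−1.63 ± 0.20), Casp1, the caspase that cleaves pro-interleukin-1β (−1.22 ± 0.16), Gsdmd, the pore-forming protein (−1.42 ± 0.17), and Mefv (−1.92 ± 0.20) were among 5 of 12 genes that fell. Nlrp1b, a sensor, rose from 7.85, 5.89 and 11.2 to 59.5, 31.1 and 98.9 normalized reads (2.67 ± 0.44), toward 378, 356 and 234 in control. Nlrp3, the sensor that LPS primes, stood at −0.21 ± 0.20 and did not pass the test.

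Chemokines of different target cells moved apart. Of 12 CC chemokines 8 fell (median −1.98), and without NCT503 2 7 fell (median −1.53). Ccl2, which attracts monocytes, had 7484, 10922 and 12053 normalized reads with LPS and 1791, 1553 and 1679 with NCT503 (−2.57 ± 0.20). Its neighbours in the monocyte-attracting group, Ccl7 (−3.92 ± 0.23) and Ccl12 (−4.12 ± 0.39), and the T cell attractants Ccl17 (−2.81 ± 0.45) and Ccl22 (−2.49 ± 0.29) fell too. In Ccl12 NCT503 2 lay at least 2-fold below both other NCT503 libraries. The CXCR3 ligands Cxcl9 (−3.11 ± 0.28) and Cxcl10 (−2.56 ± 0.28) fell, Cxcl10 from 32909, 41172 and 53037 to 9010.4, 4380.4 and 8921. The neutrophil-attracting Cxcl1 and Cxcl2 rose instead: Cxcl1 had 1027, 1119 and 692 normalized reads with LPS, 5477, 7433 and 4203 with NCT503 and 1.18, 1.82 and 2.78 in control (2.58 ± 0.24), and Cxcl2 rose by 2.51 ± 0.22. In both the groups do not overlap. Of 15 chemokine and chemoattractant receptors 13 fell (median −1.67), including the complement receptors C3ar1 (−2.12 ± 0.16) and C5ar1 (−1.74 ± 0.19) and the formyl peptide receptor Fpr1 (−1.75 ± 0.18), while Cxcr4, a receptor that retains cells in the marrow, rose (2.56 ± 0.18).

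Interferon beta rose, and of the genes that answer interferons those that passed the test fell. Without NCT503 2 fewer antiviral genes fell, and 3 of the 31 listed passed the test as higher. Ifnb1 had 16.7, 25.9 and 16.9 normalized reads with LPS, 159, 71.1 and 129.8 with NCT503 and 5.33, 3.03 and 2.08 in control, and rose by 2.49 ± 0.34 (adjusted p = 0.000234 in limma; 2.83 without NCT503 2). Of 24 genes of the interferon receptors, JAK kinases, STATs and interferon regulatory factors, Ifnb1 included, 14 fell. Tyk2, the kinase of the receptor, stood at −2.02 ± 0.19, and the factors Irf8 (−1.86 ± 0.20), Irf5 (−1.75 ± 0.19) and Irf7 (−1.21 ± 0.18) fell. Irf1 (−0.70 ± 0.24) fell in the main analysis, and its call was lost without NCT503 2 (−0.45) and without LPS 1, LPS 2, LPS 3 or NCT503 3, and with GC content regressed out.

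Antiviral genes fell in 17 of 31 (median −0.77), and without NCT503 2 in 14, with 3 higher and a median of −0.43. Under scaling by library totals 13 fell (median −0.52), and under quantile normalization 12 (median −0.50). Isg20, an exonuclease (−2.62 ± 0.24), Usp18, which removes ISG15 and restrains the receptor (−2.0 ± 0.20), and Ifi35 (−1.91 ± 0.19) fell. Of 15 guanylate-binding proteins and immunity-related GTPases, which attack the vacuoles of pathogens, 10 fell (median −1.57). Without NCT503 2 the count was 10 and the median −1.16. Igtp had 7226, 6479.6 and 8175 normalized reads with LPS and 1985, 1025 and 1372 with NCT503 (−2.37 ± 0.23), with every NCT503 library below every LPS library. Its exons overlap those of Irgm2 on the same strand, which fell by 1.71 on the log2 scale, and Tgtp1 (−2.78) and Tgtp2 (−2.23) are near-identical, so reads of these pairs may have been split.

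The interferon-stimulated response element, searched on both strands as GAAA, any 2 bases and GAAA, was in 14 of 26 windows (53.8%) of the genes that fell in the antiviral, guanylate-binding protein and chemokine lists, against 3.26% of all windows and 5.02% of those of all genes that fell. In the same 26 windows the AP-1 motif TGANTCA was in 30.8% against 5.80% of all windows, the antioxidant motif in 23.1% against 14.3% and the NF-κB motif in 15.4% against 5.60%. Members of these lists that did not fall were not counted apart, so the share describes the lists and does not tie the element to the fall. Windows are shown for Igtp (chr11:58199306-58199605, + strand) and Cxcl10 (chr5:92348840-92349139, - strand), the matched genes of smallest p, with the element in capitals.
Igtp: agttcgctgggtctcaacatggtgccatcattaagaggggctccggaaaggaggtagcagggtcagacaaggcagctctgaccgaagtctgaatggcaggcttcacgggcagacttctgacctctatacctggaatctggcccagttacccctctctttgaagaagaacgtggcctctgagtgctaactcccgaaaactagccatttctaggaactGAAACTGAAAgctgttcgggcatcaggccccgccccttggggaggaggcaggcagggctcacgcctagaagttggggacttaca
Cxcl10: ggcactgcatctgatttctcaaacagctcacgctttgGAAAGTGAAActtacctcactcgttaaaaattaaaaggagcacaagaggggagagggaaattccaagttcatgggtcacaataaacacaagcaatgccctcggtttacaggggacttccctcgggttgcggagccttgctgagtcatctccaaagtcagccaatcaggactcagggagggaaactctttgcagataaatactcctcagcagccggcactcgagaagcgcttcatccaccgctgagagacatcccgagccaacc

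Feedback genes fell more often than they rose, and genes of LPS sensing moved both ways. Of 28 NF-κB subunits and feedback inhibitors 15 fell, led by the inhibitors of cytokine signalling Socs1 (−3.44 ± 0.27), Cish (−2.77 ± 0.25) and Socs3 (−2.66 ± 0.22); 4 rose (2 without LPS 2, LPS 3, NCT503 1 or NCT503 3). Tnfaip3, the deubiquitinase A20, stood at 0.43 ± 0.26 and did not pass the test. Nfkbia, the inhibitor IκBα, fell by 0.60, a call lost under scaling by library totals or quantiles and without LPS 2, LPS 3 or NCT503 3. Of 27 Toll-like receptors, adaptors and kinases 10 fell and 5 rose (8 without NCT503 2; 9 and 8 under scaling by library totals), shares near those of all genes at 1000 normalized reads or more. Cd14, the LPS co-receptor, had 64099, 78193 and 72828 normalized reads with LPS, 11301, 19613 and 11660.1 with NCT503 and 2811, 3641 and 4033 in control (−2.38 ± 0.22), and the adaptor Myd88 fell (−2.55 ± 0.19). Tlr4, the LPS receptor, had 709.5, 476 and 609 and 755, 408 and 649 and did not pass (−0.01 ± 0.25, adjusted p = 0.971 in limma). Among immediate early genes and MAP kinase phosphatases 10 of 21 fell and 7 rose: Ier2 (−3.60 ± 0.19) and Dusp2 (−2.99 ± 0.20) fell, Dusp8 (3.36 ± 0.23) and Dusp10 (2.34 ± 0.21) rose.

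Effector and presentation genes fell more often than they rose. Of all genes tested 15.7% fell and 16.9% rose, and of those at 1000 normalized reads or more 36.4% fell and 19.2% rose. Of 24 effector genes 12 fell and 4 rose. Nos2, the inducible nitric oxide synthase, had 29277, 35668 and 58265 normalized reads with LPS and 21283, 8896 and 15548 with NCT503 (−1.46 ± 0.32), and Lcn2, which withholds iron from bacteria, fell by 3.33 on the log2 scale. Ptgs2, the inducible cyclooxygenase, rose from 27883, 16334 and 17015 to 66722, 28844 and 62862 (1.32 ± 0.31; 1.71 without NCT503 2, its lowest library). Acod1, which makes itaconate, stood at −0.39 ± 0.21 and did not pass the test except, as lower, with GC content regressed out. Of 15 genes of class I presentation 13 fell (median −1.27), including Psmb10, an immunoproteasome subunit (−2.19 ± 0.21), and the peptide transporter Tap2 (−1.85 ± 0.19). In class II presentation and costimulation 5 of 15 fell, near the share of all genes at 1000 normalized reads or more. All 5 were costimulatory, adhesion or checkpoint molecules such as Cd80 (−1.39 ± 0.25) and Icam1 (−1.63 ± 0.18).

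Of 26 Fc, scavenger, TREM and C-type lectin receptors 16 fell and 5 rose. The count of falls was 11 to 15 with 1 library left out, 11 under scaling by library totals and 12 under quantile normalization. Of all genes tested 15.7% fell, and of those at 1000 normalized reads or more 36.4%. Trem1, a receptor that amplifies inflammation, had 299, 179 and 328 normalized reads with LPS, 7.88, 8.89 and 5.60 with NCT503 and 5.92, 4.25 and 6.94 in control (−4.97 ± 0.31). The NCT503 libraries thus lay at the control level. The Fc receptors Fcgr4 (−2.81 ± 0.21), Fcgr1 (−2.75 ± 0.17) and Fcgr3 (−1.78 ± 0.22) fell and Mrc1, the mannose receptor, rose (1.70 ± 0.22). Macrophage lineage factors fell in part: Spi1, which encodes PU.1, had 37959, 61066 and 44581 and 12632, 15849 and 11442 against 10072, 13101 and 14456 in control (−1.83 ± 0.21), and Maf, a factor of macrophage differentiation, had 15834, 18016 and 16519 and 2298, 2385 and 2107 against 23494, 21717 and 20856 (−2.89 ± 0.16). Complement and metalloproteinase genes fell in 11 of 18 (6 without LPS 3 and 7 without NCT503 3), with the collagenase Mmp13 at −3.01 ± 0.20.

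**Figure D5:**
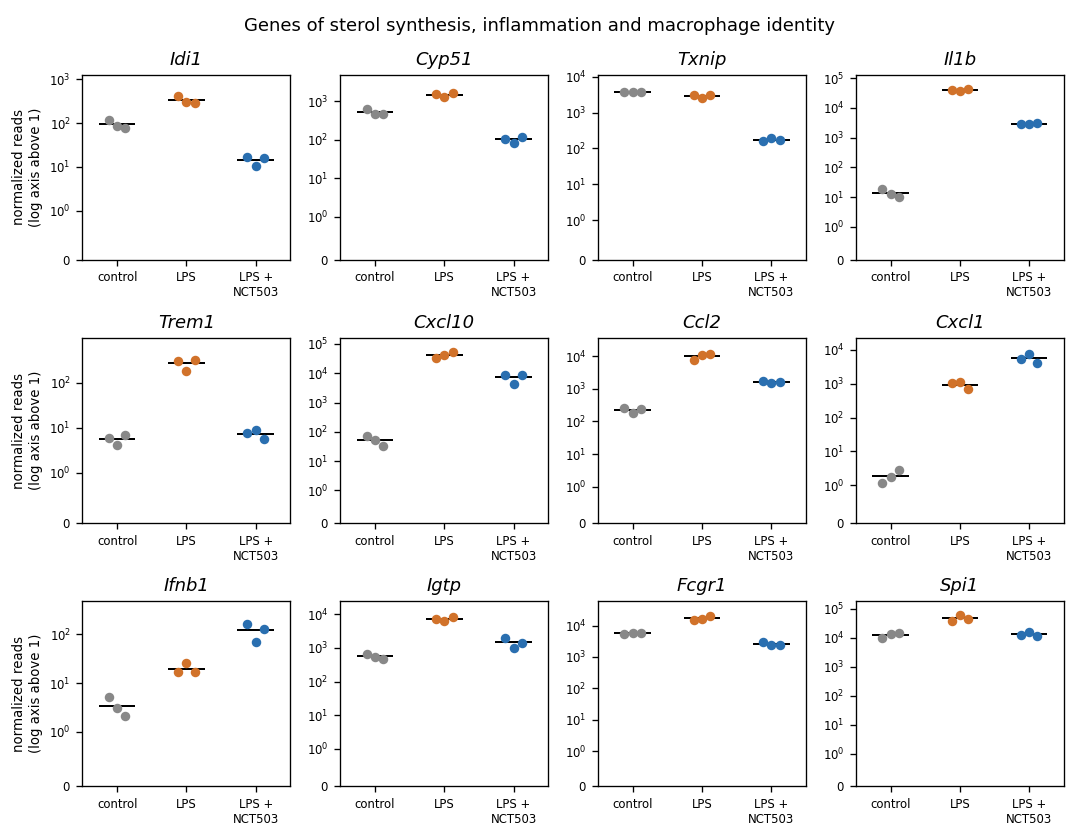
Normalized reads (vertical axis, logarithmic above 1) of 12 genes in each library of control (grey), LPS (orange) and LPS with NCT503 (blue); points are libraries and bars are group means, n = 3. With NCT503, Cxcl1 and Ifnb1 lie above their LPS libraries and the other 10 genes below them, and Idi1, Cyp51, Txnip and Fcgr1 also below control.

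Cell cycle and death genes changed in both directions. Of 34 genes of the cell cycle and DNA replication 13 fell (8 without LPS 3) and 5 rose. Under scaling by library totals 9 fell and 7 rose. Of all genes tested 15.7% fell and 16.9% rose, and the 5 rises are near that share. The D cyclins Ccnd3 (−2.90 ± 0.19) and Ccnd2 (−1.62 ± 0.18) fell and the inhibitor Cdkn2b rose (2.43 ± 0.35). In Cdkn2b NCT503 2 lay at least 2-fold above both other NCT503 libraries. The caspase Casp9 (−1.87 ± 0.24) and the death effector Bak1 (−1.41 ± 0.20) fell, while Bcl2, a survival gene (2.09 ± 0.20), and Trp53inp1, a p53 target (2.39 ± 0.23), rose. Guidance receptors and ligands were among the larger changes: Sema4c fell from 2264, 2908 and 3196 to 83.2, 71.1 and 56.9 normalized reads (−5.29 ± 0.21) and its class neighbour Sema4a by 1.89 on the log2 scale, whereas the plexins Plxna2 (3.67 ± 0.20) and Plxnc1 (2.36 ± 0.17) rose.

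The largest single changes included genes of no list. Rasd2, a small GTPase, had 1.96, 9.43 and 17.98 normalized reads with LPS, 1549, 1771 and 1909 with NCT503 and 10.1, 18.8 and 18.04 in control. Cd28, a costimulatory receptor known from T cells, had 40.2, 25.9 and 22.5 and 941, 861 and 912 (4.93 ± 0.24), and Htr2a, a serotonin receptor, 52.99, 28.3 and 27.0 and 1411, 543 and 1343 (4.84 ± 0.37). Acer2, an alkaline ceramidase (4.66 ± 0.32), and the transporter Abca5 (4.62 ± 0.30) rose. On the side of the falls, Gpr84, a receptor for medium-chain fatty acids, went from 22783, 30282 and 26730.5 to 1397, 1853 and 1096 (−4.22 ± 0.21), and Upp1, which splits uridine, from 5946, 8313 and 10109 to 509, 426 and 339.8 (−4.24 ± 0.23). The nucleoside transporter Slc28a2 (−3.88 ± 0.32), the B cell and macrophage factor Pou2f2 (−3.94 ± 0.17) and Pik3cd, the delta catalytic subunit of phosphoinositide 3-kinase (−3.94 ± 0.18), fell as well. A gene with 0 reads in all 3 LPS libraries and at least 10 in each NCT503 library was seen 7 times, 5 of them under provisional names; the other 2 were Chp2 and Lpar3, a lysophosphatidic acid receptor. The reverse was seen for Epx, eosinophil peroxidase, and 1 provisional gene.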

How the data were processed

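TopHat2 was the aligner and mm10 the mouse genome build, per the submitters' processing notes. Not given in the sources used here are the versions, the counter, the annotation, the strand setting and the test behind the deposited comparison. Per the file headers and the values, the authors deposited signal per library, that is read numbers scaled by a size factor of the library, with log2 fold changes and p-values of their own comparison. All values (100%, tolerance 0.001) were whole multiples of the smallest positive value of their column, which recovers the reads; the deposited factors equal the median-of-ratios factors of the 6 libraries. Totals were 20297324 to 22596092 reads for the 6 libraries. Control libraries were scaled to the same reference over 21434 shared genes.

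The unit differed from the counts or FPKM that had been allowed for, so the test set for normalized values was used: limma-trend 3.58.1 in R 4.3.3 (robust) on log2(value + 1), mean of at least 1 in either group. edgeR 4.0.16 on the recovered reads was an alternative and called 6087 genes. Fold changes of log2(value + 1) understate low genes. On simulated reads for these libraries limma called 49.0% of 100 genes changed 2-fold and 96.0% of 100 changed 4-fold.

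The comparison, the 64 gene lists and the rules were chosen with earlier results of these data known. Lists are described by counts and medians, without a set test. Named genes are the 20 largest rises and falls, taken from called genes with non-overlapping groups and at least 10 CPM, up to 5 called members of each list by smallest p, a fixed set including Phgdh, Atf4, Il1b and Tnf, and 12 genes in which NCT503 2 lies farthest apart. Chosen after their values were seen were Nupr1, Pycr1, Fgf21, Insig1, Insig2, Nlrp3, Sphk2, Retnlg, Cxcr2, Ear1, Cd4, Chp2 and Lpar3. Exons of 90 of the 355 named genes overlap another gene's exons (GENCODE M21), including Shmt1 (Smcr8), Aldh1l2 (D10Wsu102e), Cyp51 (Akap9), Nr1d1 (Thra), Dbp (Sphk2), Myd88 (Acaa1a), Gss (Acss2) and Ddit3 (Mars); with no strand setting given, their values are uncertain where reads were shared. Some genes that the rule names are not reported here.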

Additional observations from a re-analysis of the deposited data

How the results depend on the processing

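The 355 named genes were mostly chosen for large changes or small p, which favours keeping a call. The 15 alternatives concerned scaling, pseudocount, filter, edgeR, GC content, a replicate block and leaving out a library. Under each, 339 to 355 of the named genes kept their side of the threshold, and where called their direction. One that was called under an alternative turned direction: Itgad, an integrin in which NCT503 2 stands apart, from 0.15 to −1.27 without that library (−1.27 to 0.94 over the libraries left out). Leaving out 1 library at a time gave 4334 to 7304 calls, 2213 to 3748 higher and 2121 to 3556 lower. Requiring at least 2-fold changes left 2490 higher and 1883 lower. Regressing GC content out of each library, chosen after seeing the data, gave 7375 calls; the cause of that change was not tested. Same-numbered libraries deviated from their group means with correlations of 0.46, 0.45 and −0.13. LPS 1 and LPS 2 correlated best with their own number, LPS 3 with NCT503 2 (0.19). The labels do not say whether the numbers pair the samples. These correlations cannot decide it, since the deviations of 3 libraries from their own mean depend on each other. A replicate block called 8186 genes.

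The number of genes in which a library stands apart moves with the distance asked for. At 1.5-fold it was 766 for LPS 1, 186 for LPS 2, 191 for LPS 3, 92 for NCT503 1, 2015 for NCT503 2 and 40 for NCT503 3. With a group mean of at least 200 normalized reads it was 17, 3 and 17 for the LPS libraries and 1, 312 and 0 for the NCT503 libraries. NCT503 2 had the largest count under both. Depth limits rare genes: of those with a mean under 10 normalized reads 7.46% rose and 3.42% fell.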

Other observations

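Alternative activation and osteoclast genes were mixed. Of 12 alternative activation genes 6 fell (3 without LPS 3) and 3 rose: Chil3, a chitinase-like protein (−2.45 ± 0.22), and Il4ra, the interleukin-4 receptor (−1.35 ± 0.21), fell, while Arg1, arginase, had 9.81, 4.71 and 3.37 normalized reads with LPS and 1.75, 0.889 and 2.80 with NCT503 and did not pass (−1.26 ± 0.55, adjusted p = 0.102 in limma). Of 11 osteoclast genes 4 fell, including Tnfrsf11a, the receptor RANK (−3.10 ± 0.17), and Car2, a carbonic anhydrase (−2.53 ± 0.24). Among methylation enzymes 7 of 20 rose (3 or 4 without LPS 2, LPS 3, NCT503 1 or NCT503 3), with the DNA methyltransferase Dnmt3a at 1.90 ± 0.15, and 4 fell, with the histone methyltransferase Ehmt2 at −1.33 ± 0.20. In ribosome biogenesis 10 of 23 genes rose, among them Gnl3 (2.88 ± 0.26), Ncl (2.06 ± 0.27) and Myc (1.36 ± 0.22).

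Some neutrophil, eosinophil and mast cell markers fell below the control level. Prg2, the eosinophil major basic protein, had 302, 454.996 and 520.2 normalized reads with LPS, 2.63, 1.78 and 5.60 with NCT503 and 219, 258 and 298 in control (−6.68 ± 0.37), and Prss34, a serine protease of mast cells and basophils, had 1442, 2135 and 2242, 97.2, 91.6 and 93.3 and 845, 1348 and 1399. S100a9, a calprotectin subunit, had 572, 682 and 1388, 40.3, 61.3 and 19.6 and 1247, 696 and 909 (−4.44 ± 0.41). Of the most abundant of these markers, Csf3r had 10361, 11137 and 12252, 3769, 2696 and 3398 and 2682, 2721 and 2748, which is near the control level with NCT503.

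Some genes with values within 0.5 log2 units of each other in NCT503 1 and 3 took a distant value in NCT503 2. Gdpd3, a phosphodiesterase, had 19.3, 1461 and 16.8 normalized reads and Slfn8, a Schlafen protein, 4024, 85.3 and 2865, while the LPS libraries had 12.8, 17.7 and 12.4 and 4845, 2689.9 and 3664. Tbc1d2 had 389, 2804 and 415 against 79.5, 114 and 128. The cause was not tested.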
